A study of Dermatophagoides pteronyssinus with 3 samples.

Results

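Multi-isoform genes of modest abundance were described in 3 RNA fractions of Dermatophagoides pteronyssinus, a house dust mite whose material in dust is a known source of allergens. Whole RNA of a standard commercial mite culture (Greer) was extracted with Trizol and run on a gel, and 3 bands were cut out. Band 1 was the fraction over 500 bp, band 2 lay at about 300 bp and band 3 ran between 50 and 150 bp. Each gave 1 total RNA library. No band had a treatment or a replicate. A gene here is a unit of the contig assembly, not an annotated locus: it is the contig name without its final isoform number. Members were chosen by measured values, with the same rule in each band on its own. A gene needed at least 2 contigs, a longest contig of at most 1000 bases, and a summed read count from 1 to under 10 reads per 1000000 reads placed in that band (RPM). This gave 151 genes with 659 contigs in band 1, 45 genes with 153 contigs in band 2 and 105 genes with 566 contigs in band 3. Together they were 301 genes of 41594 and 1378 contigs of 47844.

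A de novo assembler joins overlapping reads into contigs without a genome. The names follow the scheme of the Trinity assembler, in which contigs that share sequence are grouped as a gene and the alternative paths through the shared sequence are listed as its isoforms. Such isoforms can come from alternative splicing, alternative transcript ends, alleles, close gene copies or sequencing errors, and the name alone does not say which. The contig tables give names, lengths and read values but no sequence, so none of the members could be tied to a mite gene, an RNA class or another organism. The contigs of the 3 bands came from separate assemblies, and no member of one band was matched to a member of another.

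Bands 1, 2 and 3 had 99600344, 60134651 and 38218991 reads placed on listed contigs. The RPM range of the rule therefore stands for different read numbers: 99.6 to 996 reads per gene in band 1, 60.1 to 601 in band 2 and 38.2 to 382 in band 3. The median member had 170, 134 and 87 reads in bands 1, 2 and 3. The members together held 0.0382%, 0.0147% and 0.0342% of the placed reads of bands 1, 2 and 3. With 1 library per band, differences between bands have no replicate check, and no test between bands was made. Intervals below are exact (Clopper-Pearson) 95% intervals. They cover counting error only and treat reads or contigs as independent, which reads without molecular identifiers and contigs of a shared gene are not.

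Multi-isoform genes were a larger part of the genes at this abundance than of those at all abundances. Among all genes of 1 to under 10 RPM with a longest contig of at most 1000 bases, the members made up 47.0% in band 1 (151 of 321, interval 41.5% to 52.7%). In band 2 they made up 29.0% (45 of 155, 22.0% to 36.9%), and in band 3 45.7% (105 of 230, 39.1% to 52.3%). At any abundance with the same length limit, genes with more than 1 contig were 1057 of 25426 in band 1 (4.16%), 328 of 8994 in band 2 (3.65%) and 554 of 6274 in band 3 (8.83%). The single-contig genes of that wider set had a median of 6, 6 and 5 reads. At 10 RPM or more with the same length limit, 91, 119 and 221 genes had more than 1 contig. Their share of all genes there was not computed. The higher share of the members is thus not shown to be particular to their abundance. Of the genes with more than 1 contig, the members were 10.7% of 1415 in band 1, 12.1% of 373 in band 2 and 18.4% of 570 in band 3.

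The length limit acted unequally on the bands. Of the multi-isoform genes in the RPM range, 270 of 421 in band 1 were left out for a contig over 1000 bases, against 19 of 64 in band 2 and 4 of 109 in band 3. The members are thus 35.9% of such genes in band 1 and nearly all of them in band 3. The read limits cut through a continuous range. Just inside 1 RPM stood genes of 100, 63 and 39 reads in bands 1, 2 and 3, and just outside stood genes of 99, 60 and 38 reads. Just inside 10 RPM the values were 8.99, 8.71 and 9.97 RPM, and just outside 11.04, 11.1 and 10.2 RPM. At the length limit the nearest genes had longest contigs of 996, 988 and 903 bases inside and of 1001, 1024 and 1003 bases outside.

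**Figure D1:**
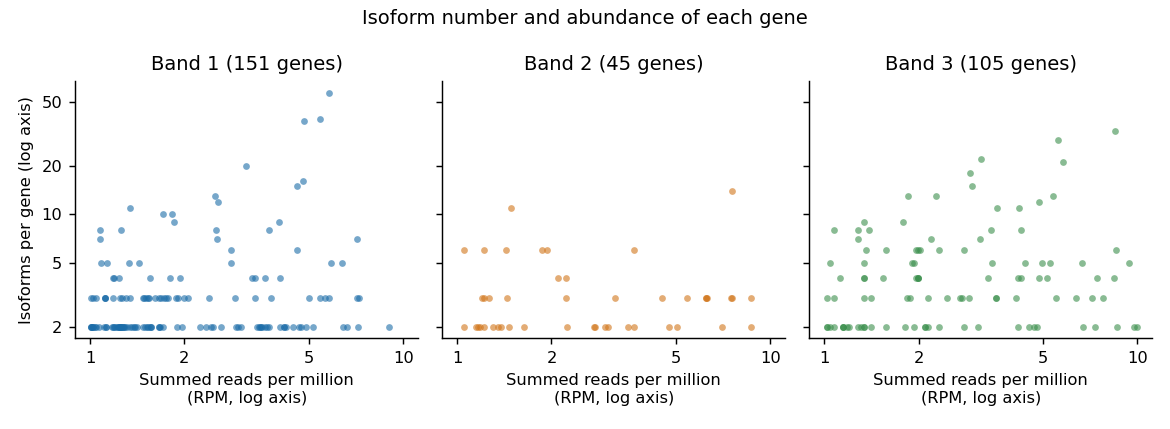
Each point is a member gene, with its summed reads in RPM (log axis) against its number of isoforms (log axis), 1 panel per band. Genes of 2 and 3 isoforms lie across the whole RPM range, and the genes of 20 or more isoforms lie above 3 RPM.

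Most members had few isoforms, and a small number had many. In band 1 the mean was 4.36 isoforms per gene and the median 2, and 76 of the 151 genes (50.3%) had exactly 2. In band 2 the mean was 3.4 and the median 3, with 21 of 45 genes (46.7%) at 2 isoforms. In band 3 the mean was 5.39 and the median 4, and 32 of 105 genes (30.5%) had 2. Genes of 10 or more isoforms were 11, 2 and 12 in bands 1, 2 and 3. They held 36.6%, 16.3% and 37.3% of the member contigs. The highest numbers were 57, 14 and 33 isoforms.

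Band 3 had the most isoforms per member from the fewest reads per member. The order depended on the genes with many isoforms only in its size: without genes of 10 or more isoforms the means were 2.99, 2.98 and 3.82. It did depend on weakly covered contigs. Counting only isoforms with at least 10 reads, the means were 3.13 in band 1, 2.69 in band 2 and 2.78 in band 3, so band 3 fell below band 1. In band 3, 274 of 566 member contigs (48.4%) had fewer than 10 reads, against 187 of 659 (28.4%) in band 1 and 32 of 153 (20.9%) in band 2.

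The members were set against multi-isoform genes of the same length limit and other abundance, as a description. Below 1 RPM the mean was 2.24 isoforms in band 1, 2.15 in band 2 and 2.28 in band 3. At 10 RPM or more it was 4.45, 4.69 and 7.37. By the mean, members of band 1 were thus close to the genes above them in abundance, while those of bands 2 and 3 lay between both classes. By the median, members of band 1 had 2 isoforms, as did genes below 1 RPM, against 3 at 10 RPM or more. Multi-isoform genes over 1000 bases in the same RPM range of band 1 had a mean of 3.75. The highest isoform number in a member's names equalled its count of listed isoforms in every member of the 3 bands, so none of the numbered isoforms was missing from the tables.

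Isoforms of a gene often differed widely in length. The median length of the longest isoform was 705, 487 and 315 bases in bands 1, 2 and 3, and that of the shortest isoform was 266, 229 and 170 bases. No table lists a contig below 151 bases, which limits the spread of genes that are short throughout. The ratio of longest to shortest had a median of 1.93 in band 1 (quartiles 1.26 and 3.31), 1.74 in band 2 (1.23 and 2.42) and 1.60 in band 3 (1.22 and 2.14). It was at least 2 in 73 of 151 genes (48.3%) in band 1, in 15 of 45 (33.3%) in band 2 and in 32 of 105 (30.5%) in band 3. In bases, the median difference was 291, 208 and 106. The order of the bands turned with the length limit: with a limit of 500 bases the median ratios were 1.32, 1.495 and 1.46, so band 1 was lowest.

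**Figure D2:**
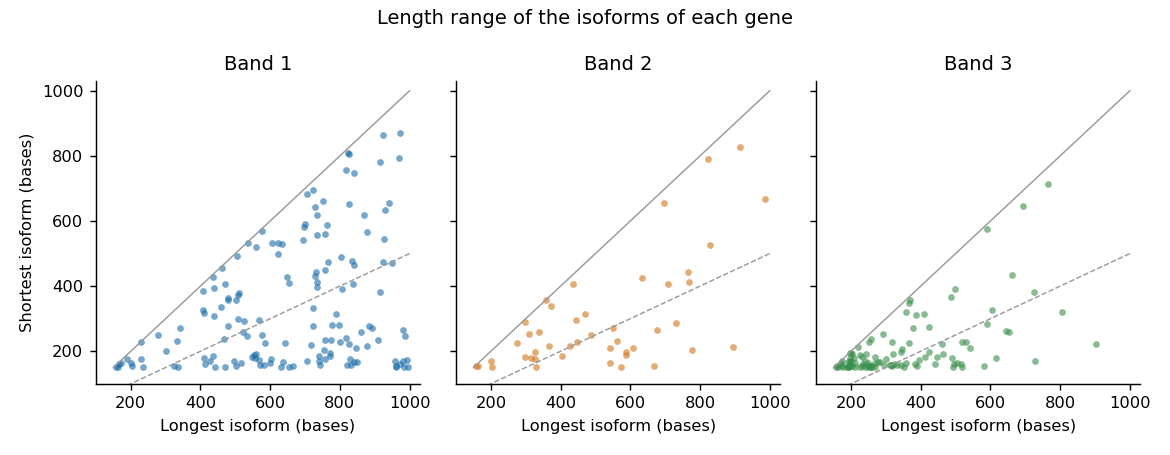
Each point is a member gene, with the length of its longest isoform against that of its shortest, both in bases, in bands 1, 2 and 3. The solid line marks equal lengths and the dashed line a ratio of 2; band 3 crowds at the lower left, where its median longest isoform has 315 bases, and many genes of band 1 lie below the dashed line.

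Small length differences were in the minority. The isoforms differed by over 50 bases in 130 of 151 members of band 1, in 35 of 45 of band 2 and in 69 of 105 of band 3. A difference of 1 to 10 bases was found in 8, 2 and 7 genes. All isoforms had the same length in 1 gene of band 1, in 2 of band 2 and in none of the 105 of band 3. At least 2 isoforms shared a length in 17 of 151 members of band 1 (11.3%), 5 of 45 of band 2 (11.1%) and 20 of 105 of band 3 (19.0%). Among multi-isoform genes of at most 1000 bases below 1 RPM, the median ratio was 1.33, 1.27 and 1.13 in bands 1, 2 and 3, below that of the members in each. Of those genes 86.4%, 91.5% and 83.8% had 2 isoforms, and their median longest isoform had 382, 282.5 and 198 bases. Members of 2 isoforms had median ratios of 1.40, 1.58 and 1.25. The part of isoform number and length in the difference was not tested. At 10 RPM or more with the same length limit, the median ratio was 1.54, 1.70 and 1.57. There it was at least 2 in 29.7%, 41.2% and 38.9% of genes, more often than in the members of bands 2 and 3. A wide length spread was thus not particular to the members. The largest ratios among members were 6.55, 4.29 and 4.25.

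The gene with the largest ratio in band 1 was TRINITY_DN10246_c0_g1. Its 6 isoforms had 152, 230, 533, 534, 853 and 996 bases. They held 2, 16, 56, 91, 148 and 144 reads, so the 2 longest isoforms were close to each other and the shortest was nearly without reads. In band 2 it was TRINITY_DN2484_c0_g3, with 4 isoforms of 156 to 180 bases that had 2 to 6 reads each. Its other 2 isoforms, of 655 and 669 bases, had 32 and 41 reads. In band 3 it was TRINITY_DN3323_c0_g1, whose isoforms of 727, 605 and 171 bases held 68, 31 and 5 reads. In these 3 genes the short isoforms had the fewest reads.

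Reads were divided unevenly over the isoforms of most members. The isoform with most reads, termed the leading isoform here, held a median of 62.8% of its gene's reads in band 1 (quartiles 49.3% and 83.9%). The median was 65.4% in band 2 (50.4% and 79.7%) and 49.1% in band 3 (35.5% and 76.2%). It held more than 50% in 111 of 151 genes (73.5%) in band 1, in 34 of 45 (75.6%) in band 2 and in 52 of 105 (49.5%) in band 3. It held more than 90% in 23, 7 and 12 genes. In a gene of 2 isoforms the leading one holds at least 50% by definition. Such genes were 50.3%, 46.7% and 30.5% of the members, so the counts above 50% are partly built in. Over all multi-isoform genes, members included, the share above 50% was 82.1%, 78.8% and 62.8%, higher than in the members of each band.

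Band 3 had the lowest share and the most isoforms per gene, and the order of the bands differed by number of isoforms. Among genes of exactly 2 isoforms, the median was 80.03% in band 1 (76 genes), 78.9% in band 2 (21 genes) and 83.8% in band 3 (32 genes), so band 3 was then the highest. Among these genes the leading share was below 60% in 10, 4 and 5 genes, and above 90% in 22, 6 and 10 genes. At 3 isoforms the medians were 58.2%, 57.7% and 54.1%, and at 10 or more isoforms 30.8%, 21.0% and 19.6%. At 4 to 5 isoforms they were 55.5%, 44.9% (2 genes) and 44.4%, and at 6 to 9 isoforms 30.8%, 36.2% and 31.2%. Band 3 was thus lowest at 3, at 4 to 5 and at 10 or more isoforms.

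**Figure D3:**
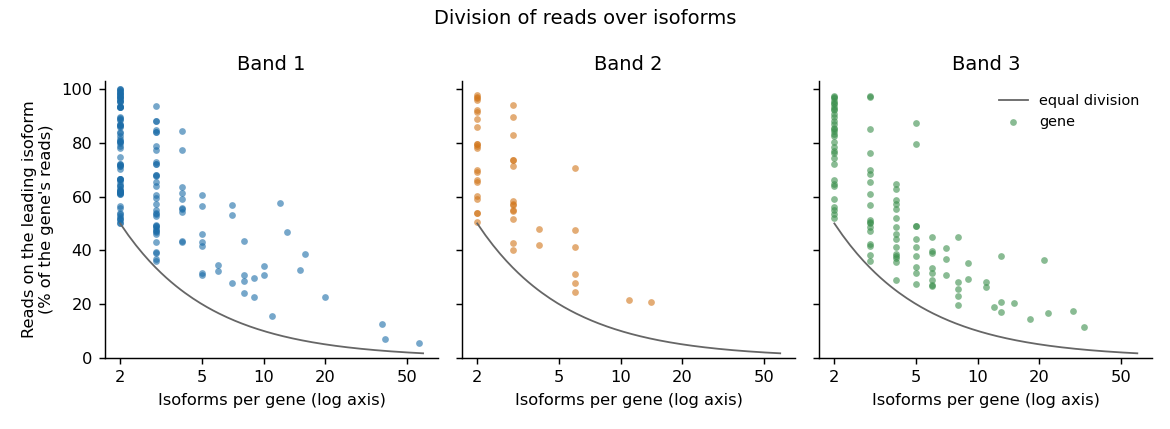
Each point is a member gene, with its number of isoforms (log axis) against the percent of its reads on the leading isoform, in bands 1, 2 and 3. The line marks an equal division of reads; genes of 2 isoforms range from 50% to 100% in band 1, and genes of 10 or more isoforms lie above the line with medians of 30.8%, 21.0% and 19.6%.

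The effective number of isoforms expresses the same division on another scale: it is 1 divided by the sum of the squared read shares, and equals the number of isoforms when all have equal reads. Its median was 1.90, 1.92 and 2.65 in bands 1, 2 and 3. Divided by the listed number of isoforms, this gave an evenness of 0.678, 0.742 and 0.691, where 1 is an equal division. The lowest value it can take is 1 divided by the number of isoforms, so genes of few isoforms cannot score as low as genes of many. Multi-isoform genes below 1 RPM were more even, at 0.862, 0.900 and 0.900, and those at 10 RPM or more less even, at 0.539, 0.546 and 0.537. Genes below 1 RPM have few reads per isoform and mostly 2 isoforms, and the part of either in their evenness was not tested.

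The leading isoform was usually also the longest. This held in 122 of 151 genes of band 1 (80.8%), 37 of 45 of band 2 (82.2%) and 70 of 105 of band 3 (66.7%). If any isoform of a gene were equally likely to be the longest, 56.1, 16.8 and 31.1 genes would be counted. At equal depth, however, a longer contig takes more reads. A count above these numbers is thus partly built in, and nothing is concluded from it. The leading isoform also had the highest mean coverage, a measure per base that comes from the same reads, in 135 members of band 1 (89.4%), in 38 of band 2 (84.4%) and in 91 of band 3 (86.7%). By mean coverage in place of reads, the leading isoform held a median of 58.4%, 58.8% and 44.0%.

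The member with the highest evenness in each band had 2 isoforms. In band 1, TRINITY_DN9967_c0_g1 had isoforms of 925 and 865 bases with 61 reads each. TRINITY_DN2442_c0_g2 in band 2 had 2 isoforms of 358 bases each, with 67 and 68 reads. In band 3, TRINITY_DN3315_c0_g4 had isoforms of 318 and 155 bases with 26 and 28 reads, so by mean coverage (8.14 and 17.5) they were not equal.

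The lowest evenness of each band was found in a gene of 5 or more isoforms. TRINITY_DN10258_c4_g1 in band 1 had 12 isoforms, of which the one of 503 bases held 147 of 255 reads (57.6%, interval 51.3% to 63.8%). The other 11 had 3 to 27 reads. In band 2, TRINITY_DN2271_c0_g2 had 6 isoforms of 408 to 436 bases, and the one of 413 bases held 82 of 116 reads (70.7%, 61.5% to 78.8%) while the others had 5 to 9. In band 3, the leading isoform of TRINITY_DN3315_c0_g2 had 162 bases and 315 of 360 reads (87.5%, 83.6% to 90.7%). Its other 4 isoforms, of 155 to 175 bases, had 36, 5, 2 and 2 reads. In all 3 genes the reads of the leading isoform exceeded those of every other isoform by more than 2-fold. By leading share, the most uneven division was in 2 genes of band 1, TRINITY_DN10140_c8_g3 and TRINITY_DN9427_c0_g1 (the second named after its values were seen), whose reads were all (100%) on 1 of 2 isoforms.

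Members near the median abundance of their band also differed in how their reads were divided, over a narrower range than all members. In band 1, TRINITY_DN7990_c0_g1 had 147 reads on 825 bases and 23 on 651 bases, and TRINITY_DN10295_c4_g1 had 133, 29 and 10 reads on 502, 400 and 357 bases. TRINITY_DN10224_c2_g1 had 10 isoforms, of which those of 853 and 972 bases had 58 reads each and the other 8 had 2 to 17. In band 2, TRINITY_DN2548_c0_g1 had 54, 46 and 34 reads on 988, 973 and 667 bases, an almost even division. TRINITY_DN2575_c0_g3 had 64 reads on 561 bases and 46, 16 and 8 on 292, 325 and 232 bases. In band 3, TRINITY_DN2366_c0_g1 had 82 and 7 reads on 160 and 154 bases. TRINITY_DN3307_c0_g1 had 28, 22, 20, 10, 6 and 3 reads on isoforms of 155 to 195 bases. TRINITY_DN3322_c0_g1 spread 87 reads over 13 isoforms of 154 to 260 bases, with 18 on the leading one.

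Isoforms of the members were covered less completely than contigs that stand alone. Every base was covered in 149 of 659 member contigs of band 1 (22.6%, interval 19.5% to 26.0%), 48 of 153 of band 2 (31.4%, 24.1% to 39.4%) and 84 of 566 of band 3 (14.8%, 12.0% to 18.0%). Genes of 1 contig in the same range of length and RPM were fully covered in 145 of 170 cases in band 1 (85.3%, 79.1% to 90.3%), 82 of 110 in band 2 (74.5%, 65.3% to 82.4%) and 99 of 125 in band 3 (79.2%, 71.0% to 85.9%). The intervals of both kinds of contig did not overlap in any band. Over all contigs of a table the share was 84.0%, 89.8% and 72.1%. Low shares were not particular to the members among multi-isoform genes. Contigs of multi-isoform genes over 1000 bases in the same RPM range were fully covered in 17.2%, 11.9% and 12.5% of cases, the last from 16 contigs. Those up to 1000 bases below 1 RPM were at 32.3%, 34.4% and 28.7%, and those at 10 RPM or more at 65.2%, 57.9% and 41.1%.

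Single-contig genes of that range have all the gene's reads on 1 contig, so their contigs have more depth. Contigs were therefore also set side by side within classes of mean coverage, using single-contig genes of any RPM up to 1000 bases. At a mean coverage of 3 to under 10, 45 of 270 member contigs of band 1 were fully covered (16.7%), against 10371 of 10962 single-contig genes (94.6%). In band 2 this was 20 of 66 (30.3%) against 2959 of 3060 (96.7%), and in band 3 33 of 262 (12.6%) against 1792 of 1938 (92.5%). Under a coverage of 3 the shares were 3.78%, 3.33% and 4.69% in members and 93.3%, 97.3% and 90.7% in single-contig genes. At 30 or more they were closer, at 64.2%, 58.3% and 36.4% in members and 79.5%, 77.6% and 82.1% in single-contig genes. The classes are wide, and neither length, RPM nor depth was matched within them. The rule by which reads matching several isoforms were placed is not stated. The part of these in the difference was not tested.

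**Figure D4:**
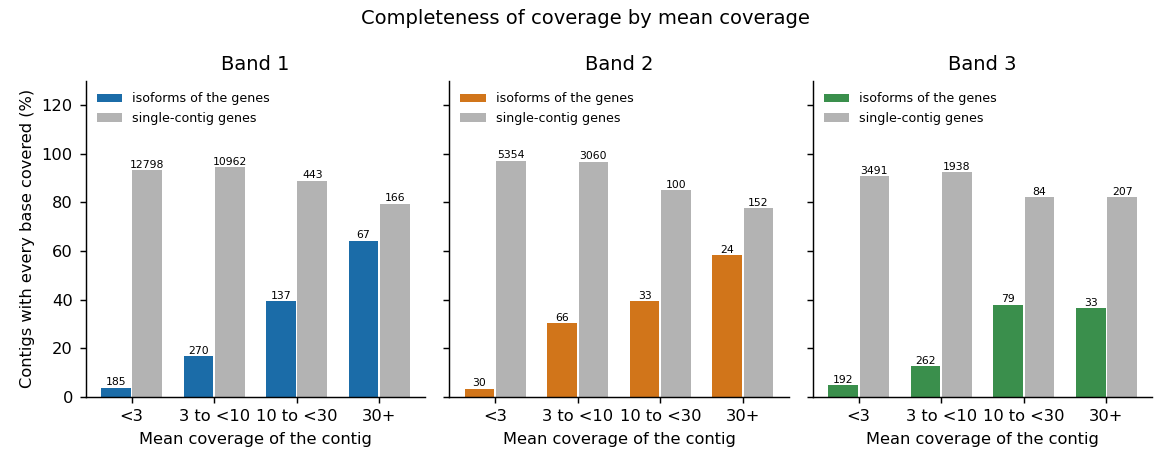
Bars give the percent of contigs with every base covered, by class of mean coverage, for isoforms of the member genes (coloured) and for single-contig genes of at most 1000 bases (grey), with the number of contigs above each bar. The coloured bars are below the grey bars in all 4 classes of each band, with the widest gaps under a coverage of 3.

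The uncovered part was mostly small. The median covered percent of member contigs was 95.5, 96.7 and 89.7 in bands 1, 2 and 3. Contigs covered over less than 50% of their bases numbered 22 of 659 (3.34%), 4 of 153 (2.61%) and 15 of 566 (2.65%). Pooled over all bases, 90.6%, 90.7% and 86.5% of the member contigs' length was covered. All isoforms were fully covered in 11 of 151 genes of band 1, 6 of 45 of band 2 and 5 of 105 of band 3. No isoform was fully covered in 38, 14 and 44 genes.

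Pooled over genes, leading isoforms were more often complete than the rest, but not in every gene. The leading isoform was fully covered in 75 of 151 genes of band 1 (49.7%), 23 of 45 of band 2 (51.1%) and 24 of 105 of band 3 (22.9%). The remaining isoforms were fully covered in 74 of 508 cases (14.6%), 25 of 108 (23.1%) and 60 of 461 (13.0%). Within genes, its covered percent was above that of every other isoform in 68 of 151 members of band 1 (45.0%), 20 of 45 of band 2 (44.4%) and 31 of 105 of band 3 (29.5%). It tied for the highest in 23, 12 and 10 genes, and another isoform was covered more completely in 60, 13 and 64 genes. The leading isoforms had a median of 109, 72 and 41 reads, and the remaining ones 14.5, 16 and 8. By number of isoforms, 44.7% of the contigs of 2-isoform genes were fully covered in band 1, 42.9% in band 2 and 40.6% in band 3. In genes of 10 or more isoforms 17 of 241 (7.05%), 5 of 25 and 15 of 211 (7.11%) were.

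Some member contigs had many reads on only part of their length. Among contigs with a mean coverage of at least 10, under 90% of the bases were covered in 23 of 112 in band 3 (20.5%, interval 13.5% to 29.2%). In band 1 it was 18 of 204 (8.82%, 5.31% to 13.6%) and in band 2 3 of 57 (5.26%, 1.10% to 14.6%). For single-contig genes of the same range the counts were 9 of 170 (5.29%) in band 1, 4 of 95 (4.21%) in band 2 and 4 of 98 (4.08%, 1.12% to 10.1%) in band 3. In band 3 the intervals of members and single-contig genes did not overlap, and in bands 1 and 2 they did. Some of the 23 contigs of band 3 shared a gene, so they are not independent. The share over all contigs or over other multi-isoform genes was not computed. Whether the trait is particular to the members was therefore not tested.

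The lowest covered percent per gene was found in such cases. In band 2, the leading isoform of TRINITY_DN2271_c0_g2 had its 82 reads on 109 of 413 bases (26.4%), with 68.2 aligned bases per read, and the gene's mean covered percent was 54.0. In band 3, the leading isoform of TRINITY_DN3354_c5_g3 had 131 reads on 83 of 153 bases (54.2%), with 66.7 aligned bases per read. Its isoform of 164 bases had 4 reads that covered 93.3% of it, and its isoform of 158 bases had none. In band 1, TRINITY_DN10140_c8_g3 had the lowest mean covered percent, 49.2, but in another form: its isoform of 820 bases was covered over 98.4% by 110 reads, and its isoform of 159 bases had 0 reads.

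Isoforms without any read were rare, but in bands 1 and 3 more frequent in members than over all contigs. They numbered 10 of 659 member contigs in band 1 (1.52%, interval 0.730% to 2.77%), in 8 genes, and 4 of 566 in band 3 (0.707%, 0.193% to 1.80%), in 3 genes. In band 2 they were 0 of 153, for which the exact interval reaches 2.38%. The limit of 3 counts that a count of 0 allows is 1.96%. Single-contig genes of at most 1000 bases at any abundance had 0 reads in 53 of 24369 cases in band 1 (0.217%), 3 of 8666 in band 2 (0.0346%) and 2 of 5720 in band 3 (0.0350%). Over all contigs the share was 0.359%, 0.0800% and 0.186%. All multi-isoform genes together, the members included, had 52 of 4450 such contigs in band 1 (1.17%), 5 of 1288 in band 2 (0.388%) and 14 of 2870 in band 3 (0.488%). Those up to 1000 bases below 1 RPM were at 1.15%, 1.14% and 1.35%, and those at 10 RPM or more at 0%, 0% and 0.184%. Isoforms at 0 reads were thus not particular to the members. A count of 0 on a contig allows (at 3 reads) up to 0.0301, 0.0499 and 0.0785 RPM in bands 1, 2 and 3.

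The isoforms at 0 reads were 159 to 505 bases long in band 1 and 152 to 194 bases in band 3. Each was shorter than the longest isoform of its gene. TRINITY_DN10236_c2_g1 in band 1 had 3 of them, of 162, 222 and 505 bases, among 57 isoforms. TRINITY_DN10264_c0_g1 had 1, of 171 bases, among 16 isoforms that together held 477 reads. TRINITY_DN10096_c0_g1 had 260, 60 and 16 reads on isoforms of 831, 472 and 445 bases and 0 on the one of 159 bases. TRINITY_DN10225_c0_g1 had 121, 84, 60 and 15 reads on 909, 878, 499 and 391 bases and 0 on 235 bases. In TRINITY_DN10118_c0_g1, 9 isoforms had 2 to 56 reads and the one of 194 bases had 0.

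Genes of 2 isoforms with a zero were single-isoform genes by reads. Besides TRINITY_DN10140_c8_g3, this was TRINITY_DN9427_c0_g1 in band 1, with 165 reads on 558 bases and 0 on 193 bases. In band 3, TRINITY_DN3334_c5_g1 had 2 isoforms at 0 reads, of 162 and 152 bases, among 22 isoforms that held 121 reads. TRINITY_DN3160_c1_g1 had 18, 9, 8, 7, 6, 1 and 0 reads on 7 isoforms of 153 to 226 bases.

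Genes of 10 or more isoforms had less depth per isoform than the other members. Their median isoform had 10, 17 and 6 reads in bands 1, 2 and 3, against 50, 34.5 and 15 in members of fewer isoforms. In band 1, TRINITY_DN10236_c2_g1 had 576 reads on 57 isoforms of 152 to 630 bases. The median isoform had 8 reads and the highest 31 (5.38% of the gene, interval 3.69% to 7.55%), the effective number was 35.4, and no isoform was fully covered. TRINITY_DN10214_c0_g1 had 540 reads on 39 isoforms, of which 1 was fully covered, and TRINITY_DN10355_c3_g1 had 481 on 38, with 2 fully covered. In band 2, TRINITY_DN2545_c0_g1 had 455 reads on 14 isoforms of 212 to 894 bases, from 11 to 94 each, and 3 were fully covered. Its isoforms of highest mean coverage reached 18.1, 17.5 and 15.0. The isoforms in the middle of its range had 5.09 and 5.66, below the median of 6.145 over all member contigs of band 2. In band 3, TRINITY_DN3367_c3_g1 had 325 reads on 33 isoforms of 151 to 494 bases, with 37 on the highest (11.4%, 8.14% to 15.3%), and none was fully covered.

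**Figure D5:**
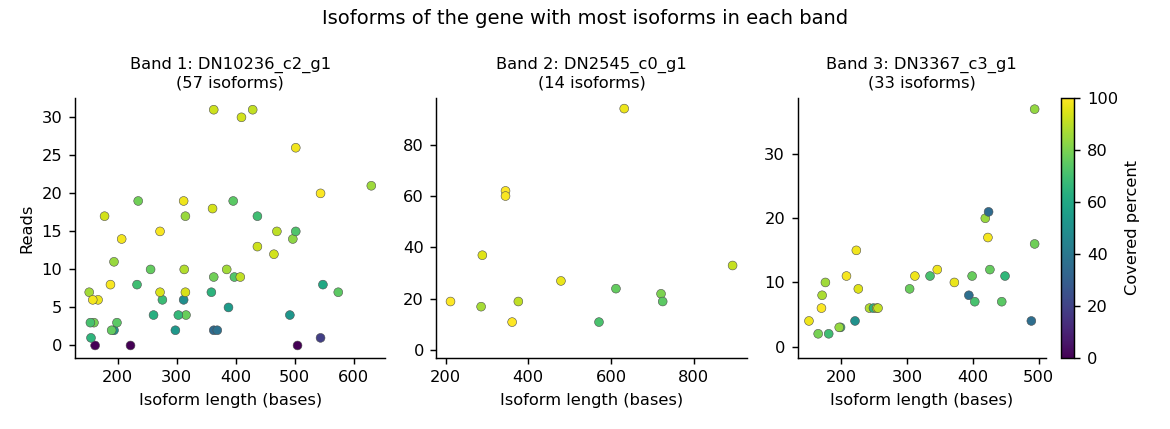
Each point is an isoform of the gene with most isoforms in band 1, band 2 and band 3, with its length in bases against its reads and its covered percent as colour. The 3 isoforms at 0 reads in band 1 are at the bottom, and the highest isoforms have 31, 94 and 37 reads in bands 1, 2 and 3.

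Among the 25 members with 10 or more isoforms, all isoforms had distinct lengths in 4 of 11 genes of band 1, 1 of 2 of band 2 and 1 of 12 of band 3. The 57 isoforms of TRINITY_DN10236_c2_g1 had 48 lengths and the 33 of TRINITY_DN3367_c3_g1 had 32, while the 29 of TRINITY_DN3331_c1_g1 had 20 and the 22 of TRINITY_DN3334_c5_g1 had 16. The large genes of band 3 were shorter than those of bands 1 and 2. Their median longest isoform had 257.5 bases, against 572 in band 1 and 718.5 in band 2. TRINITY_DN3334_c5_g1 packed 22 isoforms between 152 and 192 bases, and TRINITY_DN3331_c1_g1 packed 29 between 153 and 250 bases. Across the isoforms of single genes, Spearman's rho of length with reads was 0.37 in TRINITY_DN10236_c2_g1, 0.72 in TRINITY_DN10214_c0_g1, 0.10 in TRINITY_DN2545_c0_g1 and 0.61 in TRINITY_DN3367_c3_g1. These describe isoforms of a shared source in 1 library. Of length with mean coverage, a measure per base, rho was -0.04, 0.35, -0.57 and 0.05.

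About the same part of the members in each band shared a component, that is, a connected set of contigs that the assembler may split into several genes. Another gene of the same component was listed for 80 of 151 members of band 1 (53.0%), 24 of 45 of band 2 (53.3%) and 60 of 105 of band 3 (57.1%). A gene of at least 100 RPM stood in the component of 4 members of band 1 (2.65%), 8 of band 2 (17.8%) and 14 of band 3 (13.3%). Neither share was computed over all genes or all multi-isoform genes, so these counts do not set the members apart. Members of band 1 lay in 139 components, those of band 2 in 43 and those of band 3 in 96, so a few components held more than 1 member.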

How the data were processed

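The authors deposited 1 contig table per library, with whole-number read counts, contig length, aligned bases, mean coverage (a signal per base, not scaled by library size), RPKM, covered bases and covered percent, per the file headers. The deposited RPKM was not used, apart from being copied beside the read counts. Libraries were made with the KAPA total RNA kit with RiboErase (HMR), per the labels' protocols; bcl2fastq and Bowtie2 are named in the submitters' processing notes. Not given in the sources used here: assembler settings, read filters and the placing of reads with several matches. Genes, RPM, shares, the effective number and evenness were computed with Python 3.11.15, NumPy 2.4.6, pandas 2.3.3 and SciPy 1.17.1, and figures with Matplotlib 3.10.9; the member rule and the values were tested on simulated data. The members and lists were chosen with earlier results of these data known. Named genes are, per band, those with most isoforms, the most and least even division, the largest length ratio, the lowest mean covered percent, up to 5 with an isoform at 0 reads, and 3 nearest the median RPM; other names were chosen after their values were seen. No test between bands was possible with 1 library each.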

Additional observations from a re-analysis of the deposited data

How the results depend on the processing

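Each band has 1 library, and leaving out replicates was therefore not an option. No paired analysis was possible because the bands share no replicates. Values are for bands 1, 2 and 3 unless named. Added after the data were examined were the settings of 100 to under 400 reads, no length limit, isoforms per gene after thinning, and the omission of genes of 10 or more isoforms. The number of genes (151, 45 and 105) became 36, 23 and 85 with a limit of 500 bases, 421, 64 and 109 with no length limit, and 122, 21 and 50 at 100 to under 400 reads. Band 1 was highest except with the limit of 500 bases and at 2 to under 20 RPM (76, 38 and 82), where band 3 was. By component it was 199, 52 and 81. At the read total of band 3, thinned band 1 had 149 and thinned band 2 had 45. Thinning drew reads from the listed contigs, without a new assembly, and dropped contigs left without reads. It changes RPM little, so similar numbers of genes were built in. Isoforms per gene (4.36, 3.4 and 5.39) were 4.96, 3.69 and 6.22 by component, 3.47, 3.10 and 6.72 at 100 to under 400 reads, and 3.97, 3.44 and 5.34 with no length limit. Without genes of 10 or more isoforms they were 2.99, 2.98 and 3.82, and thinning gave 4.24 in band 1 and 3.29 in band 2. Band 3 stayed highest in these. Thinning can remove listed isoforms but adds none, so it could hardly have lifted band 1 or band 2 above band 3. With at least 10 reads per isoform the means were 3.13, 2.69 and 2.78, and band 3 was not highest. The median length ratio (1.93, 1.74 and 1.60) was 2.41, 2.12 and 1.62 by component. With a limit of 500 bases it was 1.32, 1.495 and 1.46, so band 1 was then lowest. The leading share (62.8%, 65.4% and 49.1%) was 58.4%, 58.8% and 44.0% by mean coverage, 80.03%, 78.9% and 83.8% in genes of 2 isoforms, and 64.0%, 58.3% and 47.0% at 100 to under 400 reads. Fully covered contigs (22.6%, 31.4% and 14.8%) were 50.8%, 54.9% and 37.5% with 95% of bases required, 29.7%, 36.4% and 22.9% with at least 10 reads, and 27.0%, 32.3% and 14.3% at 100 to under 400 reads. Without genes of 10 or more isoforms they were 31.6%, 33.6% and 19.4%. Band 2 was highest and band 3 lowest in each. Contigs at 0 reads (1.52%, 0% and 0.707%) became 6.68%, 3.27% and 8.13% when fewer than 3 reads were counted, which made band 3 the highest. The cause of these shifts was not tested. Depth limits the low end: the median member contig had 23, 29 and 10 reads.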

Other observations

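In some member contigs the reads aligned over fewer than 80 bases on average. The mean aligned length per read was 99.8 bases over the members of band 1, 99.7 in band 2 and 96.6 in band 3, against 99.5, 99.5 and 98.0 in single-contig genes of the same range. Among member contigs with at least 10 reads, under 80 aligned bases per read were found in 5 of 472 in band 1 (1.06%, exact 95% interval 0.345% to 2.45%), 1 of 121 in band 2 (0.826%, 0.0209% to 4.52%) and 16 of 292 in band 3 (5.48%, 3.16% to 8.75%). The single-contig genes had 1 of 170, 0 of 110 and 4 of 125 such contigs (4 of 125 is 3.20%, 0.879% to 7.99%). In band 3 the intervals of members and single-contig genes overlapped. The difference between them was not tested, since contigs of a gene are not independent. The share over all contigs or over other multi-isoform genes was not computed. Whether short alignments are particular to the members was therefore not tested.

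The 16 contigs of band 3 belonged to 8 genes and were chosen after their values were seen. The shortest mean was 52.9 bases, in an isoform of TRINITY_DN3334_c5_g3 with 203 reads on 69 of its 169 bases. Its isoform of 198 bases had 34 reads at 54.1 bases each. In TRINITY_DN3328_c3_g1, 2 isoforms of 170 and 172 bases had 82 and 40 reads at 59.0 and 56.8 bases each, which covered 84.1% and 51.2% of them. TRINITY_DN3410_c0_g2 had 5 such isoforms with 10 to 36 reads. In band 1, 3 isoforms of TRINITY_DN10273_c0_g1, of 195 to 204 bases, had 111, 128 and 150 reads at 72.8 to 73.9 bases each, and each was covered over 177 bases. The other 12 isoforms of that gene had 4 to 8 reads.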
